A study of Mus musculus with 28 samples.

Results

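The long noncoding RNAs Meg3, Rian, Mirg, Miat, Snhg11, Malat1 and Neat1, known from neurons or from the cell nucleus, were followed in single cells of the mouse cortex. The members were chosen by name, and all 7 were found among the 23453 genes of the exonic count table. In the intronic table of 20422 genes 5 of the 7 were found, and Malat1 and Neat1 were missing. The set comprised 28 cells, which by their labels were 8 astrocytes and 12 neurons of genotype C57/BL6 from primary culture of cortex, each taken with a pipette, and 8 interneurons of genotype C57/BL6/N taken from acute slices of prefrontal cortex with a patch clamp pipette. No treatment was named for any cell. For the cultured cells the label notes name a 3-month-old male mouse perfused with fixative, whereas the study's methods describe cultured cells of embryonic brain, and the age of the slice donors was not given. No culture or animal was named for any cell, so cells of 1 kind may share their source. The labels also give different sequencers and library kits for cultured cells (TruSeq Nano DNA) and for interneurons (TruSeq Stranded).

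The columns of both tables carry codes, and no label ties a code to a cell. The codes were kept apart as 3 runs, BRP564 to BRP572 (8 cells), BRP528 to BRP543 (12 cells) and F (8 cells). Their sizes equal the numbers of astrocytes, neurons and interneurons in the labels, but the identity of each run is only presumed, so values are given per cell or as lowest, median and highest, with no test and no replicate error. Levels are exonic counts scaled to an exonic total of 1000000 in each cell (CPM). Of 10 astrocyte markers, 9 had a median of at least 10 CPM in the BRP564 to BRP572 cells, 2 in the BRP528 to BRP543 cells and 0 in the F cells, and the summed astrocyte marker level ranged from 2674 to 7155, from 208 to 2476 and from 1.19 to 4363 CPM. Slc1a2, 1 of these markers, had medians of 192, 804 and 4.12 CPM in these runs. It reached 2459 CPM in the BRP528 to BRP543 cells and 4350 CPM in the F cells, so high sums there can rest on this gene. Over all genes of the table, 32.1%, 27.7% and 3.01% had a median of at least 10 CPM. Of 8 neuron markers, 8 reached that median in the BRP528 to BRP543 cells, 4 in the F cells and 2 in the BRP564 to BRP572 cells, and Rbfox3, a nuclear protein of mature neurons, was at a median of 150 CPM in the BRP528 to BRP543 cells but 0.125 CPM in the F cells. Gad1, which makes GABA, had counts in all 8 F cells, from 0.739 CPM in F12 and 18.9 CPM in F11 to 8713 CPM in F6. The presumed interneuron identity was thus poorly met by F11 and F12 in this gene. Other GABAergic markers are not given here for these cells singly. Among the BRP528 to BRP543 cells, 1136 CPM of Gad1 was found in BRP528 and at most 0.204 CPM in the others, and BRP528 and BRP529 also held 142 and 418 CPM of the astrocyte water channel Aqp4, and the part of such cells in the values below was not tested. Of 6 glutamatergic markers, 0, 6 and 1 reached a median of 10 CPM in the 3 runs (BRP564 to BRP572, BRP528 to BRP543 and F, the order used throughout), and of 9 GABAergic markers 0, 1 and 3 did. Of 6 oligodendrocyte lineage markers 2, 1 and 0 did, and of 6 microglia and 5 endothelial markers 0 did in any run. Depth differed as well. Exonic totals were 12969692 to 26770944 in the BRP cells and 838343 (F16) to 14831505 (F1) in the F cells, genes with an exonic count were 9869 to 12815 against 2338 to 7218, and the intronic share of all counts was 5.67% to 38.8% against 36.3% to 63.0% in F cells other than F1, where it was 5.31%. Wherever the F cells are set beside the BRP cells below, cell type, slice against culture, genotype, kit, sequencer and depth cannot be told apart.

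Long noncoding RNAs are transcribed and processed much like messenger RNAs but act as RNA, and many of them stay in the nucleus. Meg3, Rian and Mirg lie one after another in the imprinted Dlk1-Dio3 domain and are expressed from the maternal chromosome, where Rian hosts small nucleolar RNAs (snoRNAs) in its introns and Mirg hosts many microRNAs, while Dlk1, Rtl1 and Dio3 are expressed from the paternal chromosome. Malat1 gathers in nuclear speckles, Neat1 is the scaffold of paraspeckles, Miat (also called Gomafu) forms nuclear dots of its own in neurons and binds the splicing factor SF1, and Snhg11 is a host of snoRNAs that is abundant in neurons.

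In the GENCODE M21 annotation of GRCm38, Meg3 lay on the plus strand at chr12:109541001-109571726, Rian at chr12:109603940-109661716 and Mirg at chr12:109729764-109749460, and 208 kb separated the start of Meg3 from the end of Mirg. The exons of Meg3 covered 18.1 kb of its 30.7 kb, those of Rian 18.2 of 57.8 kb and those of Mirg 7.29 of 19.7 kb. Miat lay on the minus strand at chr5:112213228-112229395 with 9.29 kb of exons, and Snhg11 on the plus strand at chr2:158375638-158386145 with 8.52 kb of exons and 1987 bases of intron, and this annotation gives Snhg11 the type protein-coding. Malat1 at chr19:5795690-5802672 and Neat1 at chr19:5824708-5845478 were both on the minus strand, 22.0 kb apart, and their exons covered the whole gene, so that neither has an intron to be counted. Genes are annotated on the opposite strand within Meg3, Mirg, Miat and Malat1. The strand setting of the counting was not given in the sources used here, so reads of such partners cannot be told apart from those of the members. The short and long forms of Neat1 share one start and were counted as 1 gene.

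The sequences below show what sets these RNAs apart as molecules. Malat1 and the long form of Neat1 are known to end not in an added poly(A) tail but in a genome-encoded A-rich stretch that folds back on U-rich motifs. The 120 bases up to that end were chr19:5795982-5796101 for Malat1 and chr19:5824708-5824827 for Neat1 (minus strand, GRCm38, from the GENCODE transcripts), printed 5′ to 3′ with the second U-rich motif and the A-rich end in capitals.

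Malat1 3′ region: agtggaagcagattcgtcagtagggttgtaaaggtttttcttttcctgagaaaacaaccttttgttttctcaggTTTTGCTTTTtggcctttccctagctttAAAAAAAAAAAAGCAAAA

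Neat1 3′ region: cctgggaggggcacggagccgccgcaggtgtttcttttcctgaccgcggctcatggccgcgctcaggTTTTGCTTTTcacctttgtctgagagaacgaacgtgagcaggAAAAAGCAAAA

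Both regions held the same U-rich motif and the same A-rich ending, and the run of A before the final GCAAAA was 12 bases in Malat1 and 5 in Neat1.

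Miat is known for copies of TACTAAC, the branch point letters that SF1 reads in introns, within its mature RNA. Its longest transcript (9163 bases) held 6 copies on the sense strand, in 2 stretches at chr5:112217309-112217460 and chr5:112216752-112216812 (minus strand), both exonic. The copies are in capitals.

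Miat first stretch: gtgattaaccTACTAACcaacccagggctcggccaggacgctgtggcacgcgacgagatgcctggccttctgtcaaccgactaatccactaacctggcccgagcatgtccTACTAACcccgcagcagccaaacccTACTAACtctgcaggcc

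Miat second stretch: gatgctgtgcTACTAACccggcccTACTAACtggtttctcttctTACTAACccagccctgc

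Among the 21817 genes of the exonic table with a GENCODE transcript, 2 genes, Miat included, had 6 copies or more in their longest transcript, and 7.26% had at least 1. Of the other members Neat1 had 1 copy and Meg3, Rian, Mirg, Snhg11 and Malat1 had 0.

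The promoter of Meg3 was the member promoter with the most motifs of those searched. It is printed from RefSeq (GRCm38.p6, chr12:109540746-109541045, plus strand, from 250 bases before to 50 bases after the start), with TGACGTCA (the cAMP response element), TATAAA and CCAAT in capitals.

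Meg3 promoter: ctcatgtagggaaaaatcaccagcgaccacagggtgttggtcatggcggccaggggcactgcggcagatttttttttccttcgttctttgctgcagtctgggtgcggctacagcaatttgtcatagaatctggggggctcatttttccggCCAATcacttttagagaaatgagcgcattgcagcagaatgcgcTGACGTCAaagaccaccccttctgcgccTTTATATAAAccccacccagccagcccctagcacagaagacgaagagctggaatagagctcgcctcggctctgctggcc

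TGACGTCA began 57 bases before the start, CCAAT 100 bases and TATAAA 25 bases before it, and a TATAAA on the opposite strand overlapped the last of these. With both strands searched, TGACGTCA was in 1.79% of 32851 promoters of this length, TATAAA in 13.6% and CCAAT in 37.4%. RefSeq promoters were matched for 6 of the 7 members, without Neat1, with 2 starts for Meg3, and TGACGTCA and TATAAA were in the printed promoter of Meg3 and in no other of them. CCAAT was also in that of Mirg. GGGCGG, in 35.7% of all promoters, was in that of Miat, and CACGTG, in 7.15%, was in 0 of the 6.

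The microRNAs within the chr12 members are shown because they are what these transcripts are known to release. RefSeq placed 35 mature microRNAs on the same strand inside them, 3 in Meg3, 6 in Rian and 26 in Mirg, with 34 different seeds (bases 2 to 8, in capitals). The pair with a common seed, GGUUGCC, was miR-453 and miR-496a-5p, both in Mirg. One or more from each host follow, with miR-134-5p, known from dendrites of neurons, and miR-410-3p among those of Mirg.

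miR-770-5p (Meg3): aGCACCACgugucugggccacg
miR-370-3p (Rian): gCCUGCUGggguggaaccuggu
miR-341-3p (Rian): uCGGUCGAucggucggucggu
miR-134-5p (Mirg): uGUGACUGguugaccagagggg
miR-410-3p (Mirg): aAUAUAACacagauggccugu
miR-453 (Mirg): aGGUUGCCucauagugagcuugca
miR-496a-5p (Mirg): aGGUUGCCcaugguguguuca

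Meg3, the maternally expressed transcript that opens the domain, had exonic counts in all 28 cells. In the BRP564 to BRP572 cells its level was 87.0 CPM at the lowest, 307.5 at the median and 1294 at the highest. In the BRP528 to BRP543 cells it was 657.5, 1577 and 8584 CPM. In the F cells it was 1113 in F1, 1616 in F16, 5133 in F11, 6328 in F12, 7717 in F24, 10900 in F2, 14349 in F6 and 41246 CPM in F7. The 3 runs overlapped, with BRP567 of the first run above the lowest cells of the other 2. In F7 Meg3 took 4.12% of all exonic counts and was the gene with the most counts of that cell, and in F2, F6 and BRP540 it ranked 2. The median of log2(CPM + 1) was 2.64 higher in the 8 F cells than in the 20 BRP cells (4.26 under TMM factors and 5.33 under DESeq2 size factors), and within the BRP cells the difference of BRP564 to BRP572 from BRP528 to BRP543 was -2.36.

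**Figure D1:**
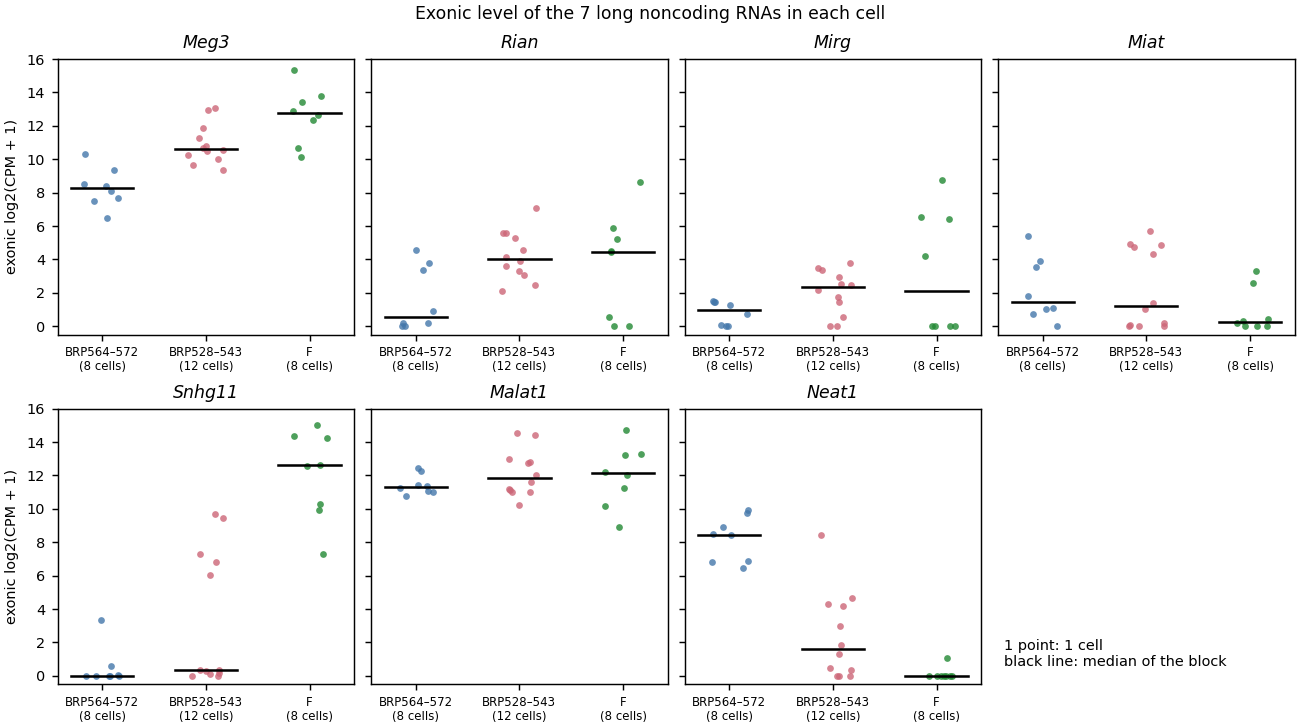
Exonic log2(CPM + 1) of each member (vertical axis) in the 3 runs of codes (horizontal axis), with 1 point per cell and a black line at the median. Snhg11 in the F cells, at 155 CPM or more, lies above the BRP564 to BRP572 cells, at most 9.28 CPM, and Neat1 shows the reverse, while Malat1 overlaps in all 3 runs.

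Rian, the snoRNA host, was far lower than Meg3. Its exonic level was 0 to 22.2 CPM with a median of 0.496 in the BRP564 to BRP572 cells, 3.34 to 134.7 CPM with a median of 15.4 in the BRP528 to BRP543 cells, and 0 to 397.8 CPM with a median of 21.1 in the F cells. All 12 BRP528 to BRP543 cells had exonic counts of Rian, and 2 cells of each of the other runs had none. Among the F cells, F1 and F16 were at 0, F24 was at 0.472 CPM, and F7, F6, F11, F12 and F2 were at 20.8, 21.4, 35.8, 59.1 and 397.8 CPM. F2 alone held 74.4% of the exonic counts of Rian in the F cells, and BRP540 held 33.2% of those in the BRP528 to BRP543 cells. The difference of medians between F and BRP was 0.96 on the log2 scale and that between BRP564 to BRP572 and BRP528 to BRP543 was -3.50. Their size depended on the scaling, with 2.19 (TMM factors), 2.97 (DESeq2 size factors) and 0.27 (intronic counts added) for the former and -2.03 (DESeq2 size factors), -2.09 (intronic counts added) and -5.05 (pseudocount 0.1) for the latter.

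Mirg, the microRNA host, had 6522 exonic counts in all cells together, against 10773 for Rian, but more than Rian in the F cells (5217 against 2959). Its highest level was 1.82 CPM in the BRP564 to BRP572 cells and 12.8 CPM in the BRP528 to BRP543 cells, with medians of 1.02 and 4.04 CPM. The F cells fell apart, with 0 CPM in F1, F11, F12 and F16 and 17.3, 85.1, 94.1 and 438 CPM in F2, F24, F6 and F7. At their depths, a cell at 0 could hold up to 0.202 CPM in F1, 0.683 in F11, 1.11 in F12 and 3.58 in F16 (3 counts, counting error only). With the F cells divided in this way the median between them stood on no cell, and the difference of medians to the BRP cells, 0.64, changed sign when F2, F6, F7 or F24 was left out (-1.46) and with a pseudocount of 0.1 (-0.48), and was 1.25 under TMM factors and 1.72 under DESeq2 size factors.

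The 3 chr12 members differed in where their counts lay. The intronic share of a gene is its intronic counts over its exonic and intronic counts together. Summed over the 28 cells it was 13.4% for Meg3 (95% exact binomial interval 13.4% to 13.5%, counting error only), 89.8% for Rian (89.65% to 90.01%) and 54.2% for Mirg (53.4% to 55.0%). These sums weight cells by their counts, and the median share over cells was 3.35% for Meg3, 71.8% for Rian and 74.2% for Mirg. For Meg3 the summed share was 3.13% in the BRP cells and 22.6% in the F cells. Of its 194087 intronic counts in the F cells, F7, F11 and F12 held 49262, 72572 and 52082. Of the cells with at least 100 counts of the gene, the share exceeded the cell's own overall intronic share in 4 of 28 for Meg3, in 19 of 22 for Rian and in 11 of 16 for Mirg.

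In the BRP528 to BRP543 cells the intronic share of Meg3 was 0.9503% to 6.93%, below the overall share in all 12. In the F cells it was 0% in F16, 0.338% in F1, 1.01% in F2, 1.89% in F6, 12.1% in F7, 49.8% in F24, 75.2% in F12 and 76.3% in F11. F11 and F12 thus had more Meg3 counts in introns than in exons, 72572 against 22537 in F11 and 52082 against 17130 in F12, while their overall intronic shares were 46.8% and 48.3%. These were also the 2 F cells with the least Gad1. They differed from each other by a chi-square of 17.6 per degree of freedom over genes, the lowest of the 378 pairs of cells. This measure is set against read sampling alone, which it exceeded. It cannot show that F11 and F12 were independent cells, which was not tested, and both columns were kept.

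For Rian the F cells were divided the other way. F11 and F12, with 157 and 160 exonic counts, had 0 and 3 intronic counts, while F6 had 39572 intronic against 258 exonic counts (99.3%) and F24 had 509 against 1 (99.8%). In BRP540 and BRP542, the 2 BRP cells with the most intronic counts in all, 17131 and 17348 intronic counts of Rian were found, which was 87.9% and 95.6% of its counts there. Among the BRP528 to BRP543 cells, 3 had more exonic than intronic counts of Rian, namely BRP534 with 479 against 8, BRP538 with 1032 against 298 and BRP528 with 335 against 278.

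Mirg had 83.9% of its counts in introns in the BRP528 to BRP543 cells and 91.0% in the BRP564 to BRP572 cells, but 4.99% in the F cells. The 91.0% rested on BRP567 and BRP570, with 459 and 814 of 1348 intronic counts, and the median over the cells of that run was 54.5%. The 4.99% rested on the 4 F cells with exonic counts, since the other 4 had 1 to 3 counts, all intronic. F6 had 1133 exonic and 2 intronic counts of Mirg and F7 had 3808 and 180. The overall intronic share was higher in the F cells than in most BRP cells, so the share of Mirg differed in the direction opposite to that of all genes together. With exonic and intronic counts added, the difference of medians between F and BRP for Mirg became -0.56.

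**Figure D2:**
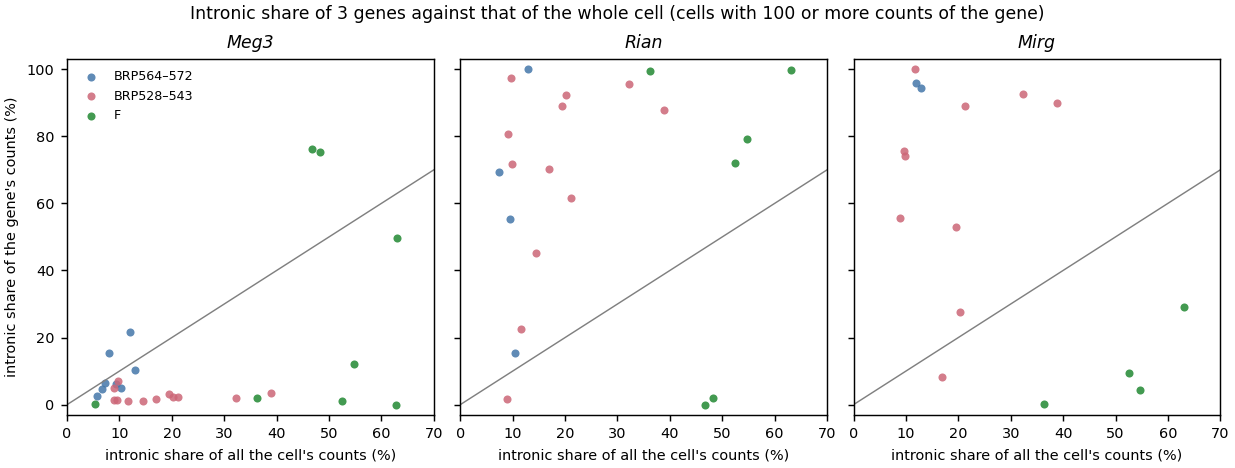
Intronic share of Meg3, Rian and Mirg (vertical axis, percent of the gene's counts) against the intronic share of all counts of the same cell (horizontal axis, percent), for cells with at least 100 counts of the gene, with the line of equality in grey. Meg3 lies below the line in 24 of 28 cells, with F11 and F12 at 76.3% and 75.2%, and Rian lies above it in 19 of 22.

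**Figure D3:**
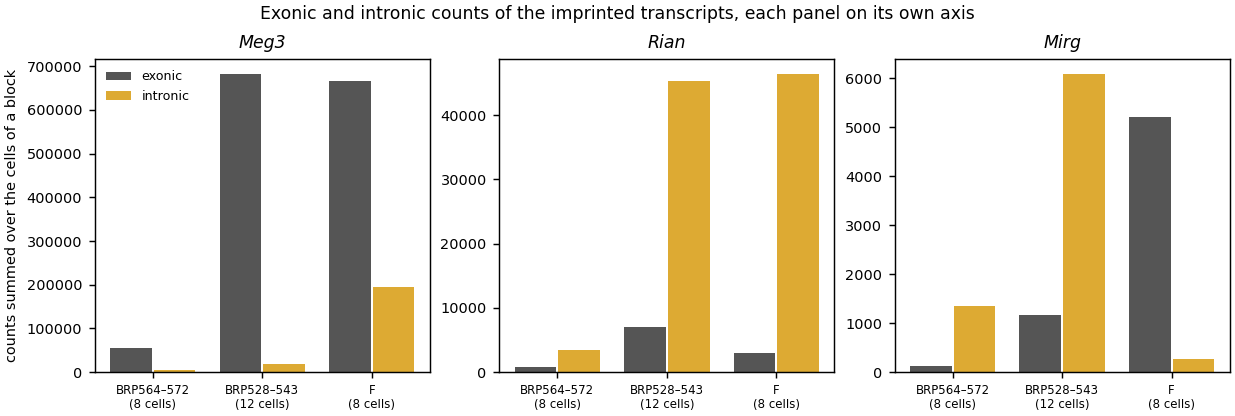
Exonic (dark) and intronic (yellow) counts of the 3 chr12 members summed over the cells of each run of codes (vertical axis, counts, on a separate axis for each gene). Exonic counts exceed intronic counts for Meg3 in all 3 runs and for Mirg only in the F cells, at 5217 against 274, while intronic counts exceed exonic counts for Rian in all 3 runs.

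The small RNAs hosted in the domain left few counts. Of 56 microRNA genes of the domain listed in the exonic table, 46 were at 0, and the rest held 228 counts in all, led by Mir341 with 78 counts in BRP542, Mir431 with 69 and Mir337 with 65. Of 4 snoRNA genes listed, 2 had counts, both inside Rian. AF357425 had 3348 counts in 11 cells, 1897 of them in BRP542, and DQ267102 had 475 counts in 4 cells, 442 of them in BRP540. BRP540 and BRP542 were also the BRP cells richest in intronic Rian counts. Reads of a hosted small RNA and of its host transcript cannot be told apart in these counts.

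Among the protein-coding genes of the domain, Dlk1, a paternally expressed ligand-like membrane protein, was at 27.4 to 106 CPM in the BRP564 to BRP572 cells, with medians of 53.3 CPM there, 0.204 CPM in the BRP528 to BRP543 cells and 0 in the F cells. Dio3, the deiodinase that inactivates thyroid hormone, reached 149 CPM in 1 BRP564 to BRP572 cell, 11.9 CPM in the BRP528 to BRP543 cells and was listed at 0 in the F cells, and Rtl1 was at most 6.92 CPM in any cell. The neighbours outside the imprinted core included Begain at most 1.64 CPM, Wdr25 at most 21.4 CPM, and Wars with medians of 25.9, 44.7 and 0 CPM in the 3 runs. Ppp2r5c had medians of 176, 187 and 9.47 CPM and Dync1h1, the dynein heavy chain, 116, 227 and 20.8 CPM. Of the 11 genes of the domain list, members included, 5, 5 and 3 had a median of at least 10 CPM in the 3 runs, against 32.1%, 27.7% and 3.01% of all genes of the table.

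Snhg11 gave the widest contrast. Its level was 0 in 5 of 8 BRP564 to BRP572 cells, 0.0505 CPM in BRP570, 0.496 in BRP564 and 9.28 in BRP571. In the F cells it was 155 CPM in F6, 990 in F16, 1229 in F1, 6103 in F2, 6319 in F24, 19242 in F12, 21424 in F11 and 33457 in F7. These 2 runs did not overlap, with F6 at 16.7 times the level of BRP571. Of 17789 genes with a count in either run, 0.0281% had every F cell above every BRP564 to BRP572 cell, which were 5 genes, namely Snhg11, the potassium channel gene Kcnc2, Lmtk3, Slc30a10 and St8sia3. Of these, Snhg11 had the highest median in the F cells, 6211 CPM against 1206 CPM for Kcnc2 and 1.07 to 4.36 CPM for the other 3. Without F1 and F16, the F cells with the lowest intronic share and the lowest depth, 19 genes (0.108%) were counted in this way, Meg3 and Snhg11 among them, and Meg3 was added by leaving out F1 alone. F1, at 1113 CPM of Meg3, was the only F cell below BRP567, at 1294 CPM. Leaving it out thus fixed this outcome for Meg3 in advance.

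Within the BRP528 to BRP543 cells Snhg11 was divided. BRP542, BRP528, BRP537, BRP529 and BRP541 were at 832, 710, 155, 112 and 63.7 CPM, and the other 7 cells were at most 0.286 CPM, with 0 counts in BRP534 and BRP535. All 12 cells had the neuron marker Snap25, a protein of synaptic vesicle fusion, at 607 CPM or more. BRP528 was the cell of this run with Gad1 at 1136 CPM, while BRP542 had Gad1 at 0 and the glutamatergic marker Slc17a6 at 1012 CPM. No gene had every F cell above every BRP528 to BRP543 cell, and for Snhg11 the lowest F cell, F6 at 155 CPM, was below BRP542 and BRP528. The difference of medians between F and BRP was 12.38 on the log2 scale and stayed between 12.31 and 12.46 when any 1 cell was left out. With a BRP median of 0.163 CPM, its size depended on how levels near 0 were treated. The difference was 14.57 with a pseudocount of 0.1, 11.17 with intronic counts added, 12.87 under TMM factors and 12.14 under DESeq2 size factors. No intronic count of Snhg11 was found in any cell beside 544331 exonic counts, which allows an intronic share of up to 0.000678% (95% exact binomial limit), although the annotation gives it 1987 bases of intron. Whether the authors' annotation has an intron there is not given in the sources used here.

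Miat was low in all runs. It reached 41.1 CPM in BRP567, 51.9 CPM in BRP542 and 8.98 CPM in F24, and medians were 1.85, 1.33 and 0.182 CPM. Among the BRP528 to BRP543 cells 5 were above 10 CPM (BRP536, BRP539, BRP528, BRP529 and BRP542) and the other 7 were at 1.62 CPM or less, with 0 in BRP537, BRP540 and BRP541. BRP528, BRP529 and BRP542 were also above 10 CPM in Snhg11. The difference of medians between F and BRP was -1.01, with -0.61 under TMM factors, -0.16 under DESeq2 size factors and -2.40 with a pseudocount of 0.1. All 28 cells together held 45 intronic counts of Miat beside 4634 exonic ones. When each cell was thinned to 2000000 exonic counts, Miat was still seen in 6 of 8 BRP564 to BRP572 cells, 8 of 12 BRP528 to BRP543 cells and 2 of the 7 F cells that reached this depth.

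Malat1, the nuclear speckle RNA, was among the most abundant RNAs everywhere. It was at 1756 to 5660 CPM with a median of 2520 in the BRP564 to BRP572 cells, 1208 to 24128 CPM with a median of 3679 in the BRP528 to BRP543 cells, and 489 to 27544 CPM with a median of 4510 in the F cells. The 3 runs overlapped broadly, and the cells within each of the latter 2 runs differed more than the medians did. It had the most counts of any gene in BRP540, BRP542 and F2 and ranked no lower than 200 in any cell. BRP540 and BRP542 were also the BRP528 to BRP543 cells highest in Meg3, at 7975 and 8584 CPM, and the 2 with the highest overall intronic shares, 38.8% and 32.3%. The difference of medians between F and BRP was 0.74, with 2.14 under TMM factors and 2.97 under DESeq2 size factors, both of which lower the BRP cells relative to the F cells, and 0.24 with intronic counts added.

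Neat1, the paraspeckle scaffold, had counts in all 8 BRP564 to BRP572 cells, at 86.6, 112, 119, 346, 355, 480, 846 and 974 CPM. In the F cells it was at 0 in 7 of 8, with depths that allow 0.202 CPM in F1 to 3.58 CPM in F16, and at 1.08 CPM (13 counts) in F6. The BRP564 to BRP572 cells thus lay wholly above the F cells, but so did 17.9% of the 17789 genes with a count in either run, in the same direction. The BRP528 to BRP543 cells were mostly low, with 0 in BRP539, BRP542 and BRP543, at most 23.9 CPM in all but 1, and 344 CPM in BRP540, which alone held 79.9% of the counts of the run. BRP540 had Aqp4 at 1.09 CPM and Gfap at 0. BRP528 and BRP529, the cells with the most Aqp4 in this run, had 18.3 and 17.4 CPM of Neat1. The median of log2(CPM + 1) was 6.86 higher in BRP564 to BRP572 than in BRP528 to BRP543, and the difference of F from BRP was -4.45 (-2.56 under DESeq2 size factors). The BRP median of 21.1 CPM lay between those of its 2 unlike runs, 351 and 2.08 CPM, and described neither. Taken apart, the difference of F was -8.46 from BRP564 to BRP572 and -1.60 from BRP528 to BRP543.

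For the other pairs of runs, the share of genes without overlap was 2.78% for BRP564 to BRP572 above BRP528 to BRP543, 2.18% for the reverse, 7.54% for BRP528 to BRP543 above F and 0% for the reverse, and 0 of the 7 members were among them in any of these 4.

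**Figure D4:**
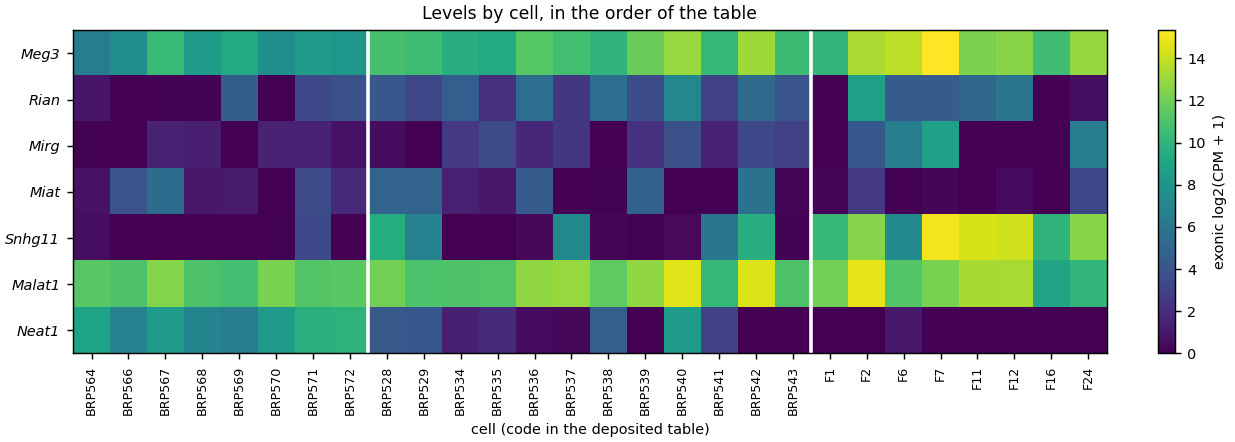
Exonic log2(CPM + 1) (colour) of the 7 members (rows) in each of the 28 cells (columns, in the order of the deposited table), with white lines between the 3 runs of codes. Malat1 and Meg3 are present in every cell, Neat1 stands out in the first 8 cells and in BRP540, and Snhg11 in the last 8 cells and in 5 of the 12 between.

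To compare the members with one another, levels were divided by the exonic length, in CPM per kb. That length was the union of all annotated exons of a gene, which no single transcript need span. For Neat1 it was 20.8 kb, the length of the long form, although the short form is counted in the same gene. The order by median depends on these lengths, and no other lengths were tried. In the BRP564 to BRP572 cells the order by median was Malat1 (361), Meg3 (17), Neat1 (16.9), Miat (0.200), Mirg (0.140), Rian (0.0272) and Snhg11 (0), and the ranges of the last 4 all began at 0 and overlapped. Meg3 and Neat1 could not be ordered there, with ranges of 4.81 to 71.5 and 4.17 to 46.9, and Miat reached 4.42, above the lowest Neat1 value. In the BRP528 to BRP543 cells it was Malat1 (527), Meg3 (87.2), Rian (0.845), Mirg (0.554), Miat (0.143), Neat1 (0.09999) and Snhg11 (0.0326), and the ranges of the last 5 overlapped. The lowest Malat1 value there, 173, was below the highest of Meg3, 475, and the lowest of Meg3, 36.3, was below the highest of Snhg11, 97.6. In the F cells it was Snhg11 (729), Malat1 (646), Meg3 (388), Mirg (1.19), Rian (1.16), Miat (0.0196) and Neat1 (0), and the ranges of the first 3, 18.2 to 3926, 70.04 to 3944 and 61.5 to 2280, overlapped, as did those of Mirg, Rian and Miat. The lowest Snhg11 value was also below the highest of Mirg, 60.1, and of Rian, 21.8. Malat1 and Meg3 were thus in the upper 3 in all runs, whereas the median of Snhg11 was last in both BRP runs and first in the F cells. In the BRP528 to BRP543 cells that median covers the 5 cells with high levels, which reached 97.6 CPM per kb, and the 39108 counts of Snhg11 in this run exceeded those of Rian, Mirg, Miat and Neat1.

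Members were also compared over the 28 cells by Spearman's rho of log2(CPM + 1). This is a description only, since the cells differed in depth and run of codes and, by the labels, in library kit. Meg3 and Rian had a rho of 0.55 over all cells and 0.35, 0.41 and 0.44 within the 3 runs (8, 12 and 8 cells). Meg3 and Mirg had 0.49 over all cells, 0.18 and 0.17 within the BRP runs and 0.91 within the F cells. Meg3 and Malat1 had 0.45 over all cells but 0.74 within BRP528 to BRP543, -0.071 within BRP564 to BRP572 and 0.21 within F. Rian and Malat1 had 0.53 over all cells and -0.24, 0.47 and 0.85 within the 3 runs. Meg3 and Snhg11 had 0.70 over all cells against -0.44, 0.57 and 0.24 within the runs, and Meg3 and Neat1 had -0.69 against -0.19, -0.21 and 0.41, so these 2 values followed the differences between the runs more than those among cells of 1 run. Malat1 and Neat1, neighbours on chr19, had -0.17 over all cells, but 0.60 within BRP564 to BRP572, where both had counts in every cell, and -0.092 and -0.25 within the other 2 runs. Over all 28 cells the rho of each member with the exonic total of the cell lay between -0.45 (Snhg11) and 0.28 (Miat), while within BRP564 to BRP572 it was 0.90 for Mirg, 0.60 for Neat1 and 0.52 for Malat1.

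**Figure D5:**
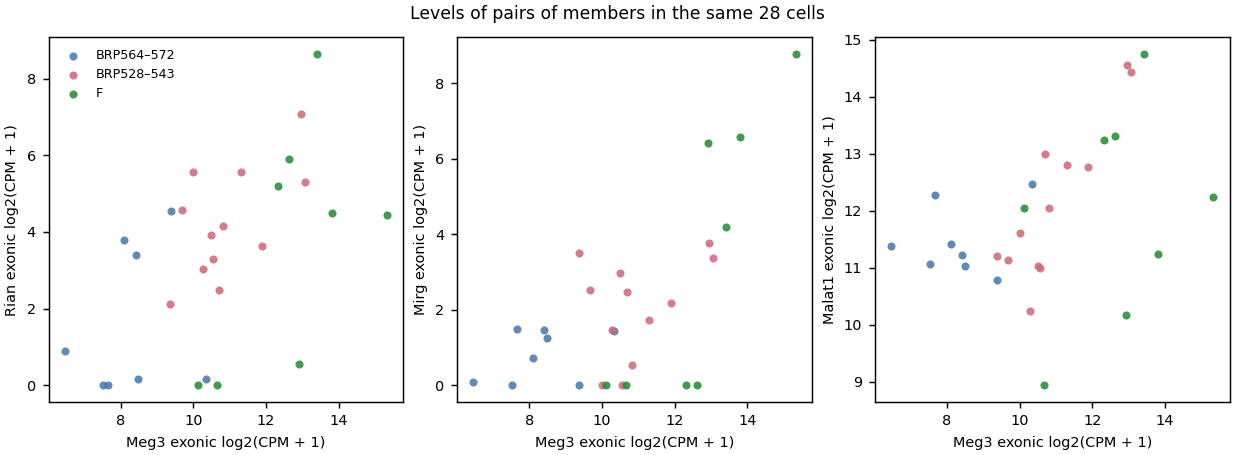
Exonic log2(CPM + 1) of Meg3 (horizontal axis) against that of Rian, Mirg and Malat1 (vertical axes) in the 28 cells, coloured by run of codes. Within the 8 F cells Mirg is at 0 in 4 cells and follows Meg3 with a rho of 0.91, and within the 12 BRP528 to BRP543 cells Malat1 follows Meg3 with a rho of 0.74.

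Among 8542 genes with at least 10 exonic counts in at least 14 cells, the 3 most like each member over the 28 cells were named by rho. For Neat1 they were Mlc1 (0.91), Smpdl3a (0.91) and Ctgf (0.91), and the first is a membrane protein of astrocytes. Mlc1 had medians of 556, 1.01 and 0 CPM in the 3 runs, and within the BRP528 to BRP543 cells its rho with Neat1 was 0.74. Within the BRP564 to BRP572 cells, where both were abundant, the rho was 0.33 for Mlc1, 0.38 for Smpdl3a and 0.62 for Ctgf. Within the F cells it could not be computed for any of them. For Snhg11 they were Vstm2a (0.74), the potassium channel gene Kcnc1 (0.62) and the transcription factor gene Tcf4 (0.61). Within the 3 runs the rho was 0.81, 0.60 and 0.19 for Vstm2a, -0.26, 0.40 and 0.43 for Kcnc1, and 0.16, 0.28 and 0.07 for Tcf4. For Meg3 they were Ywhah (0.70), A230073K19Rik (0.70) and Kcnc1 (0.68), and within the F cells the rho of Kcnc1 was -0.29. For Mirg they were Phlda1 (0.77), A230073K19Rik (0.75) and Gprasp2 (0.68), so that A230073K19Rik was named for 2 of the chr12 members. For Rian they were Atxn7l3 (0.66), Tmem181b-ps (0.64) and the sodium channel gene Scn2a1 (0.64). For Miat they were Tdrkh (0.69), Nup43 (0.67) and Usp1 (0.66), and all 3 had a median of 0 CPM in the F cells. For Malat1 they were 5031426D15Rik (0.66), Lrp8 (0.65) and Zmynd8 (0.64), and Zmynd8 kept 0.93, 0.74 and 0.85 within the 3 runs.

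Transcripts of proteins that share nuclear bodies with these RNAs were counted in the BRP cells, and the proteins themselves were not measured. Of 13 listed paraspeckle protein genes, 12 had a median of at least 10 CPM in the BRP564 to BRP572 cells, 11 in the BRP528 to BRP543 cells and 1 in the F cells. Over all genes of the table, 32.1%, 27.7% and 3.01% had such a median in the 3 runs, so few genes of any kind reached it in the F cells. Tardbp, Sfpq and Nono, RNA-binding proteins of paraspeckles, had medians of 536, 488 and 431 CPM in the BRP564 to BRP572 cells and 394, 341 and 206 CPM in the BRP528 to BRP543 cells. These 3 were at 81.7 CPM or more in every BRP cell, including BRP539, BRP542 and BRP543, in which Neat1 was at 0. In the F cells the medians of Sfpq, Tardbp and Nono were 14.6, 2.49 and 0.507 CPM, and their highest values were 772, 1240 and 1.73 CPM. Pspc1, at a median of 0.288 CPM there, reached 6174 CPM. Of 14 genes of nuclear speckle proteins, 13, 14 and 7 reached a median of 10 CPM in the 3 runs, beside the same shares of all genes. Son, a core protein of speckles, was at 569, 495 and 143 CPM. Sf3b1, a splicing factor, was at 264, 480 and 180 CPM and Srsf3, a splicing regulator, at 518, 340 and 1.28 CPM.

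Of 21 other listed long noncoding RNAs found in the table, 9, 9 and 3 had a median of at least 10 CPM in the 3 runs, against 32.1%, 27.7% and 3.01% of all genes of the table. By the median over all 28 cells the most abundant were Gas5, a snoRNA host, at 859, 203 and 260 CPM, Snhg6, another, at 213, 111 and 0 CPM, and Kcnq1ot1, an imprinted antisense RNA, at 69.1, 104 and 3.70 CPM. The snoRNA hosts Snhg1 and Snhg12 had medians of 132, 32.4 and 0 CPM and of 24.4, 36.2 and 0.0903 CPM, so these 4 other snoRNA hosts had medians of 260 CPM or less in the F cells, where that of Snhg11 was 6211 CPM.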

How the data were processed

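Counts per gene of 28 single mouse cells were used as the authors deposited them, as raw counts of exonic and of intronic reads in 2 tables. Whole numbers and differing totals showed that they were not normalized. The submitters' processing notes name bcl2fastq 2.17, STAR 2.4.0 and mm10. The counting tool, annotation, strand setting and filters are not given in the sources used here. All 28 columns carry codes matched to 0 samples, so no test was run, including the comparison of neurons and astrocytes planned with edgeR. The members and gene lists were chosen with earlier results of these data known.

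Levels were CPM of the exonic total and, on a log scale, log2(CPM + 1) with a pseudocount of 1. Genes were annotated by symbol with GENCODE M21 (GRCm38, which may differ from the authors' annotation), and promoters and microRNAs came from RefSeq (GRCm38.p6). A count of 0 was given a limit of 3 counts. Shares carry 95% exact binomial intervals, which cover counting error only, since reads without molecular identifiers are not independent molecules. Exonic depth was 838343 to 26770944. Named were the members, the 3 genes most like each by rho, all genes of the domain list and up to 3 genes of highest median of other lists, and genes outside this rule were chosen after their values were seen (the 5 genes without overlap, further snoRNA hosts, markers). edgeR 4.0.16 (TMM) and DESeq2 1.42.0 (size factors, R 4.3.3) served as alternative scalings. Python 3.11.15, numpy 2.4.6, pandas 2.3.3, scipy 1.17.1 and matplotlib 3.10.9 were used. The rho and overlap code was tested on simulated data. Alternatives were other scalings, added intronic counts, a pseudocount of 0.1, count minimums, thinning to 2000000 exonic counts, and each cell left out in turn. Added after the data were examined were differences between the 3 runs of codes and the overlap counts without F1 and F16.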

Additional observations from a re-analysis of the deposited data

Results flagged for a closer look

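Of 14 groups of 8 cells examined (7 members in 2 runs of codes), 2 had a cell that stood apart from the others by Dixon's criterion for the gap to the nearest cell, which chance meets in about 1 in 20 groups of untied values. Snhg11 in BRP571 was at 3.36 on the log2(CPM + 1) scale (9.28 CPM, 182 counts), while the other 7 BRP564 to BRP572 cells were at 0 to 0.496 CPM. Neat1 in F6 was at 1.06 on that scale (1.08 CPM, 13 counts), while the other 7 F cells were at 0, so that any count would have met the criterion there. Both levels are below the lowest level of the same gene in the run of codes where it was present in all 8 cells, which was 155 CPM for Snhg11 and 86.6 CPM for Neat1.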

How the results depend on the processing

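Values are differences of medians of log2(CPM + 1) unless said otherwise, and a difference is F minus BRP. TMM factors shifted the scale of all genes by a median of 0.92 in the F cells and -0.44 in the BRP cells (log2), and DESeq2 size factors by 0.13 and -2.19. Under DESeq2 size factors the difference became 5.33 for Meg3 (2.64 as reported) and 2.97 for Malat1 (0.74), the median level of Malat1 over 28 cells became 9.67 (11.51), and the difference of BRP564 to BRP572 from BRP528 to BRP543 for Miat became -0.011 (0.26). TMM factors gave 2.14 for Malat1. With a pseudocount of 0.1 the difference became -7.72 for Neat1 (-4.45) and -0.48 for Mirg (0.64), which was -0.56 with intronic counts added and 3.13 after thinning, where F16 did not reach the depth and was left out. Leaving out each cell in turn gave -1.46 to 2.74 for Mirg, and -0.097 to 0.62 for Miat between BRP564 to BRP572 and BRP528 to BRP543. So both changed sign when 1 cell was left out. Spearman's correlation of Meg3 and Rian was 0.44 within F cells (0.55 over all). For Meg3 and Mirg (0.49) it was 0.91 within F cells, 0.36 under TMM factors and 0.42 with intronic counts added. For Rian and Mirg (0.23) it was 0.077 within F cells and 0.65 with intronic counts added. For Malat1 and Neat1 (-0.17) it was -0.098 within BRP cells, -0.34 under TMM factors and -0.084 with intronic counts added. The median intronic shares of Meg3, Rian, Mirg and Miat moved by less than the spread over cells in both pooled and count-filtered form. Depth limited the F cells most, where a count of 0 allows up to 3.58 CPM in F16. No paired analysis was possible because the columns carry no replicate numbers and no result comes from a test.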
